A study of Mus musculus with 20 samples.

Results

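The integrins, syndecans and focal adhesion genes are 41 genes of the cell surface and of the plaque that ties it to actin, taken by gene symbol from a table of 27179 genes. They comprise 12 integrin alpha chains, 6 integrin beta chains, 4 syndecans and 19 plaque, actin and caveolar genes, and all 41 symbols were found. Of these, 39 had a mean of at least 10 normalized counts over the 20 libraries and were tested, beside 13057 genes in all that passed this minimum. Expression was measured by RNA-seq of adipose progenitor cells (APCs) from inguinal white adipose tissue, the subcutaneous fat of the groin, of male C57BL/6 mice. PDGFRb+ cells were separated in a cell sorter according to DPP4, a surface peptidase. The 4 groups of 5 libraries were DPP4+ cells from mice held at 6 °C for 24 h, DPP4+ cells from mice at 22 °C (room temperature), DPP4- cells from mice held at 6 °C for 24 h and DPP4- cells from mice at 22 °C. The labels name no transgene, genotype or age, and do not say whether each library came from a separate mouse or from pooled mice, so p-values measure the spread between these libraries.

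Integrins are receptors built of an alpha and a beta chain that bind extracellular matrix outside the cell. Talin and kindlin bind the beta chain's tail and switch the receptor on. Vinculin, alpha-actinin, filamin and tensin link it to actin, and focal adhesion kinase and integrin-linked kinase signal from it. Syndecans are transmembrane proteoglycans that bind matrix through heparan sulfate and act beside integrins. In fat progenitors, attachment to matrix and tension in the actin cytoskeleton are known to bear on whether a cell stays a fibroblast or becomes an adipocyte.

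Reads assigned to genes ranged from 8.49 M to 18.8 M per library (M, 1e6 reads). Dpp4 averaged 10035 ± 2091 normalized counts in cold-exposed and 8546 ± 1158 in room temperature DPP4+ cells, and 61.3 ± 42.4 in cold-exposed and 67.9 ± 21.6 in room temperature DPP4- cells (SD, n = 5). Pdgfrb, the sort marker, was present in every group, with 1505 ± 80.7 and 2942 ± 226 normalized counts in DPP4+ cells at 6 and 22 °C. In DPP4- cells it had 4124 ± 543 and 4126 ± 333. Pdgfra was also lower in cold DPP4+ cells (5287 ± 462 and 11512 ± 419), against 10676 ± 1323 and 9894 ± 641 in DPP4- cells. Cd34 (10505 ± 3377 and 9773 ± 1193) and Ly6a (12174 ± 2015 and 10674 ± 784) had higher means in cold DPP4+ cells. The part of these markers in the cold differences was not tested. The 8 leukocyte markers summed to 117 to 185, 105 to 134, 76.5 to 454 and 151 to 181 normalized counts in DPP4+ cells at 6 and 22 °C and DPP4- cells at 6 and 22 °C, in that order, and DPP4- replicate 2 at 6 °C held the highest sum. The 6 endothelial markers summed to 259 to 374 in DPP4+ cells at 6 °C and 72.1 to 166 in DPP4+ cells at 22 °C. This difference was carried mostly by Kdr (251 ± 47.8 against 30.3 ± 11.3). Egfl7 (34.0 ± 7.39 against 19.9 ± 3.87) was also higher at 6 °C. Tie1 (5.40 ± 3.17 against 11.2 ± 8.40) and Emcn (1.72 ± 1.18 against 2.19 ± 2.15) had lower means. Pecam1 (23.2 ± 10.2 against 23.7 ± 11.4) and Cdh5 (21.7 ± 4.23 against 20.6 ± 6.43) had near equal means. The 8 pericyte and smooth muscle markers summed to 671 to 948 in the 10 DPP4+ libraries and 3899 to 6392 in the 10 DPP4- libraries.

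**Figure D1:**
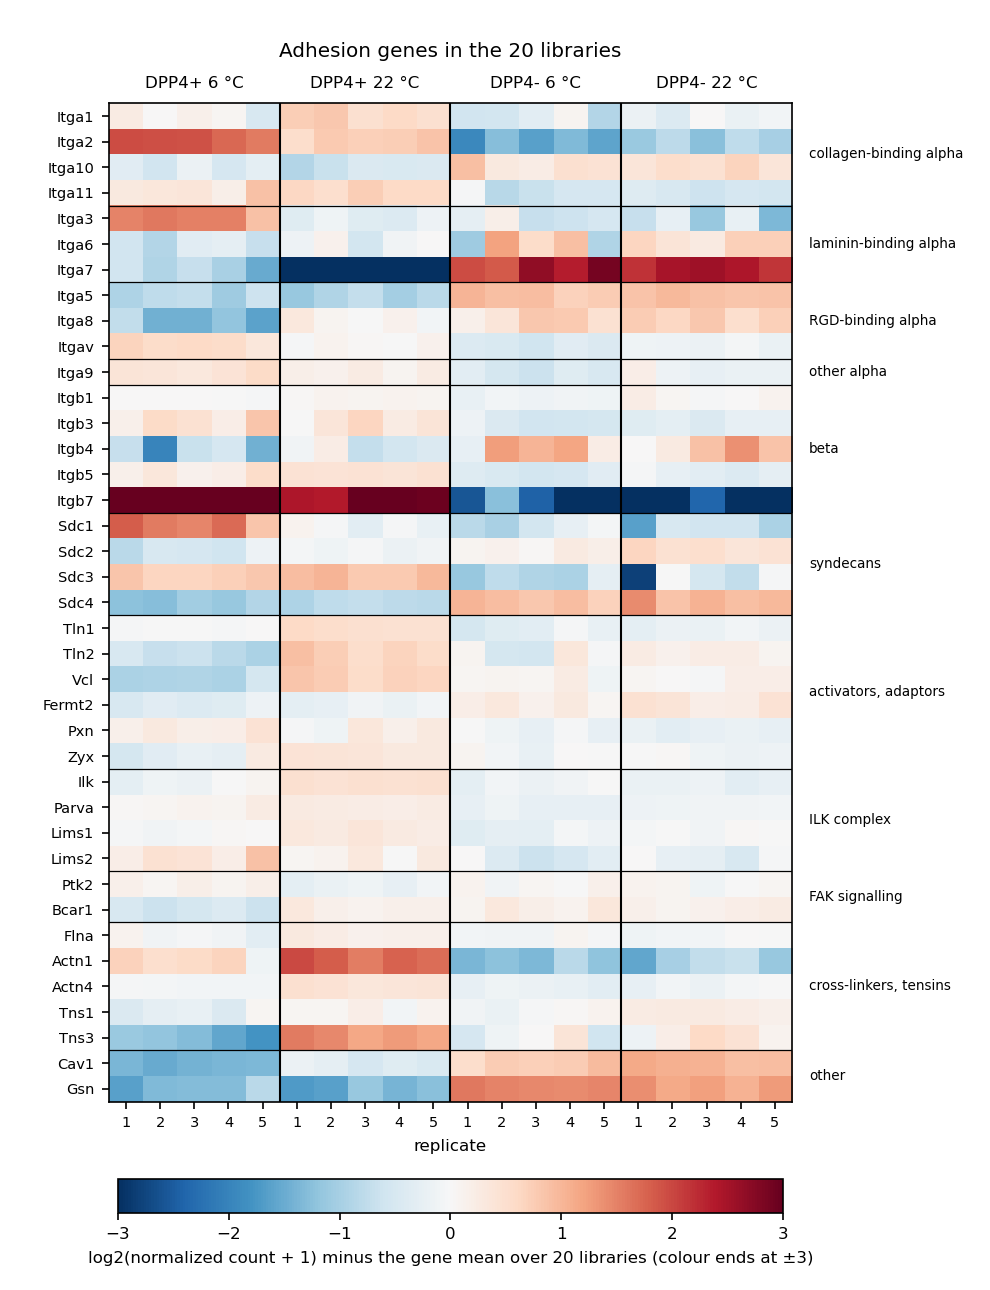
Colours show log2(normalized count + 1) of the 39 tested genes in each of the 20 libraries, minus the gene's mean over all 20; rows are ordered by role, columns by group and replicate. Itgb7, Actn1, Itga2 and Sdc3 stand high in DPP4+ libraries and Itga7, Gsn, Itga5, Sdc4 and Cav1 in DPP4- libraries, and within DPP4+ cells Tns3, Vcl and Tln2 are lower and Sdc1, Itga2 and Itga3 higher at 6 °C than at 22 °C.

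Which receptor transcripts the cells carried was described from normalized counts per kb of exon, so that genes could be set beside each other. Itga5, the fibronectin receptor alpha chain, took the largest share of the summed alpha chain level in every group: 46.6 ± 2.02% at 6 °C and 47.6 ± 2.23% at 22 °C in DPP4+ cells, and 82.2 ± 1.99% at 6 °C and 81.1 ± 0.740% at 22 °C in DPP4- cells (SD, n = 5). Itga11, a collagen receptor chain, took 22.2 ± 2.73% and 27.7 ± 1.66% in DPP4+ cells at 6 and 22 °C, and 6.52 ± 1.16% and 6.26 ± 0.347% in DPP4- cells. Itgav, the chain of the vitronectin receptors, took 18.5 ± 2.62% and 14.1 ± 0.801% in DPP4+ cells, and 5.11 ± 0.604% and 6.11 ± 0.294% in DPP4- cells. The DPP4+ cells therefore held a more even alpha chain mixture, whereas Itga5 made up at least 79.9% of the alpha chain level in each DPP4- library.

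Among beta chains Itgb1, the common partner of most alpha chains, led with 61.4 ± 4.5% and 63.9 ± 1.25% in DPP4+ cells at 6 and 22 °C, and 75.8 ± 1.64% and 76.3 ± 0.315% in DPP4- cells. Itgb5 followed with 18.4 to 24.4% in the group means. Itgb3 took 7.40 ± 1.03% and 6.74 ± 0.965% in DPP4+ cells at 6 and 22 °C, and 5.43 ± 0.793% and 5.16 ± 0.432% in DPP4- cells. Itgb7 took 8.86 ± 2.50% and 4.91 ± 0.953% in DPP4+ cells, and 0.166 ± 0.139% and 0.0792 ± 0.0524% in DPP4- cells. Among syndecans Sdc4, which sits in focal adhesions, took 49.4 ± 2.42% and 55.6 ± 1.80% in DPP4+ cells, and 78.7 ± 2.17% and 77.2 ± 1.93% in DPP4- cells. Sdc1 took 17.3 ± 4.81% of the syndecan level in DPP4+ cells at 6 °C, against 5.06 ± 0.693% in DPP4+ cells at 22 °C. These shares are descriptions and were not tested. In bulk libraries, fewer cells of a type and less RNA per cell cannot be told apart.

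**Figure D2:**
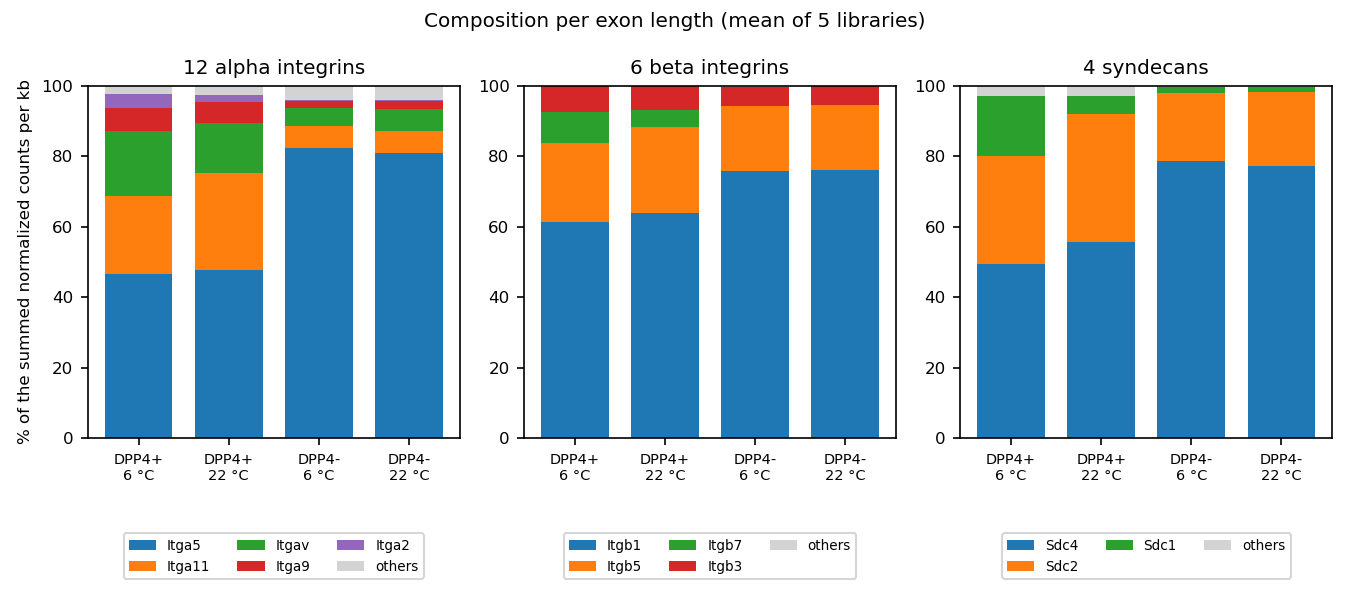
Stacked bars give the share of each gene in the summed normalized counts per kb of exon of the 12 alpha chains, the 6 beta chains and the 4 syndecans (mean of 5 libraries per group, in %). Itga5 takes 46.6 and 47.6% of the alpha chain level in DPP4+ cells at 6 and 22 °C and 82.2 and 81.1% in DPP4- cells, and Sdc1 takes 17.3% of the syndecan level in DPP4+ cells at 6 °C.

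The cold exposure of DPP4+ cells changed 25 of the 39 tested genes, with 7 higher and 18 lower at 6 °C (limma on log2(normalized count + 1), adjusted p under 0.05 over the 13057 genes, Benjamini-Hochberg). The share called lower, 46.2%, compares with 22.6% of all tested genes, and the share called higher, 17.9%, with 23.5%. The groups of 5 libraries did not overlap for 23 genes, or 59.0%, against 38.4% of all genes. The median log2 difference was -0.20, against 0.01 over all genes. The rises lay among matrix receptors (5 alpha chains and Sdc1) with Ptk2, and the falls among plaque and actin genes, Cav1, 2 alpha chains and 2 syndecans.

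**Figure D3:**
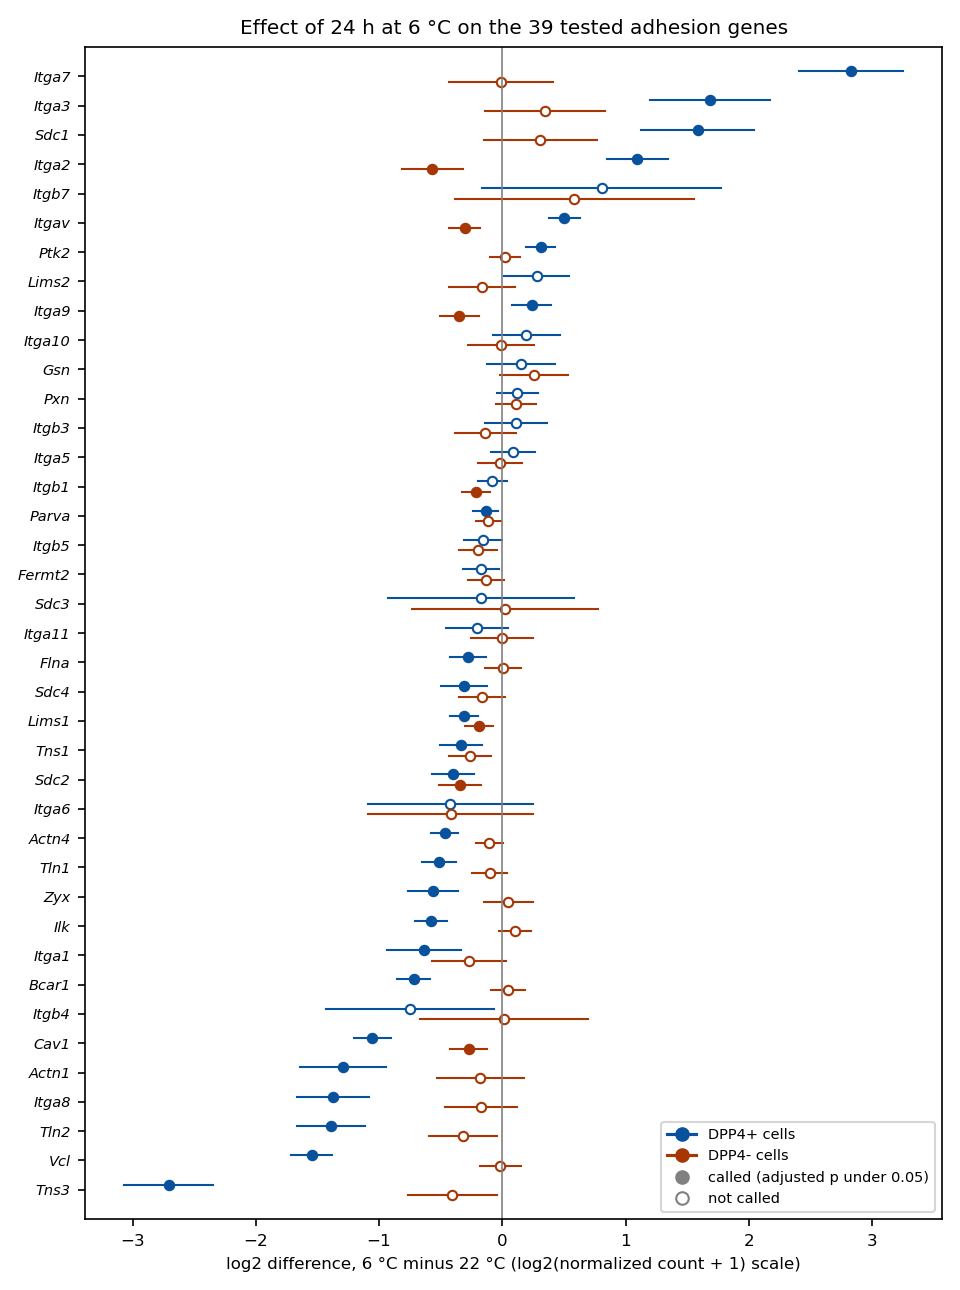
Points give the fitted log2 difference at 6 °C minus 22 °C and lines its 95% interval, for the 39 tested genes in DPP4+ cells (blue) and DPP4- cells (brown); filled points passed the adjusted p threshold of 0.05. In DPP4+ cells the values run from 2.83 for Itga7 to -2.71 for Tns3, while in DPP4- cells the largest called difference is -0.57 for Itga2.

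Of the collagen receptor chains, Itga2, which with Itgb1 forms a receptor for fibrillar collagen, rose in DPP4+ cells. It had 630.5, 620.0, 605, 533 and 473 normalized counts in DPP4+ cells at 6 °C, against 231, 276, 263, 269 and 293 in DPP4+ cells at 22 °C. Every library at 6 °C was above every library at 22 °C, a 2.15-fold ratio of means (log2 difference 1.09, SE 0.120, limma adjusted p = 6.88e-08). Itga1, a receptor chain for basement membrane collagen, fell by 0.63 on the log2 scale (adjusted p = 0.00102), with 149 to 247 normalized counts at 6 °C and 292 to 366 at 22 °C. Itga10 (0.19, 95% interval -0.08 to 0.46) and Itga11 (-0.20, -0.46 to 0.05) did not pass the test. Without DPP4+ replicate 5 at 6 °C, which had the highest Itga11 count of its group, Itga11 was called lower at -0.32.

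Of the laminin receptor chains, Itga7, best known from skeletal and smooth muscle, had 92.3, 73.0, 85.4, 69.9 and 47.9 normalized counts in DPP4+ cells at 6 °C, against 14.9, 7.86, 8.68, 7.52 and 8.72 in DPP4+ cells at 22 °C. It rose 7.72-fold from a very low level (log2 difference 2.83, SE 0.202, adjusted p = 2.57e-10), and stayed far under the 499 to 1019.7 normalized counts of DPP4- cells at 6 °C. The 8 pericyte and smooth muscle markers split in DPP4+ cells, with a sum of 671 to 856 normalized counts at 6 °C and 859 to 948 at 22 °C. At 6 °C and 22 °C, Abcc9 (342 ± 57.5 and 222 ± 60.9), Kcnj8 (48.0 ± 6.26 and 18.5 ± 2.70) and Rgs5 (7.62 ± 1.92 and 4.95 ± 3.11) had higher means in the cold. Notch3 (138 ± 32.1 and 239 ± 33.0), Myh11 (22.3 ± 4.54 and 77.0 ± 7.12), Cspg4 (34.0 ± 4.51 and 84.9 ± 8.31), Cnn1 (107 ± 25.8 and 211 ± 17.1) and Mcam (39.9 ± 5.29 and 44.0 ± 3.88) had lower means. Their part in the Itga7 rise was not tested. Itga3 had 52.6, 55.9, 53.4, 52.9 and 33.7 normalized counts at 6 °C and 13.7, 16.4, 13.8, 13.2 and 16 at 22 °C, and rose 3.41-fold (log2 difference 1.68, adjusted p = 2.68e-06). Replicate 5 at 6 °C was its lowest library there and still above every library at 22 °C. Itga6 had 12.5 to 19.6 normalized counts at 6 °C and 15.9 to 26.2 at 22 °C, ranges that overlapped, and did not pass the test (-0.42, -1.09 to 0.25).

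Of the chains that bind the RGD motif of fibronectin and vitronectin, Itgav had 4397, 4073, 4238, 4099.9 and 3550.3 normalized counts in DPP4+ cells at 6 °C and 2701, 2991, 2843, 2781 and 3039 in DPP4+ cells at 22 °C. The groups were apart and Itgav rose 1.42-fold (log2 difference 0.50, SE 0.0607, adjusted p = 3.19e-07). Itga8, a chain known from mesenchyme around epithelia and from smooth muscle, had 69.9, 42.7, 42.7, 51.2 and 38.1 normalized counts at 6 °C and 147, 124, 118, 128 and 112 at 22 °C. It fell by 1.37 on the log2 scale with no overlap (adjusted p = 2.41e-08). Itga5, the most abundant alpha chain per length, had 4394, 4919, 5069, 3997 and 5455 at 6 °C and 3828, 4476, 5111, 4162 and 4791 at 22 °C, and these overlapped (log2 difference 0.09, -0.09 to 0.27, adjusted p = 0.413). Itga9, a receptor chain for tenascin-C and VCAM-1, rose by 0.24 (adjusted p = 0.014), with 951 to 1149 normalized counts at 6 °C and 811 to 909.5 at 22 °C. Its relative Itga4 was under the minimum, with 0.971 to 3.29 at 6 °C and 4.36 to 7.46 at 22 °C, and was not tested.

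None of the 5 tested beta chains passed the test in DPP4+ cells, although 2 (Itgb4 and Itgb5) had an unadjusted p under 0.05; of the 5, edgeR called 1 (Itgb7) and DESeq2 called 0. Itgb1 had 9615, 9708, 9695, 9558 and 9296 normalized counts at 6 °C and 9869, 10283, 10091, 10267 and 10148 at 22 °C. The libraries at 6 °C were all lower, by a log2 difference of -0.08 (-0.20 to 0.03, adjusted p = 0.247). Itgb7, known from lymphocytes where it pairs with Itga4 or with the alpha E chain, had 859.9, 1140.1, 649.6, 685 and 1439.7 at 6 °C and 415, 403, 633, 611 and 593 at 22 °C. These did not overlap, yet limma gave 0.81 with a wide interval (-0.17 to 1.78, adjusted p = 0.165), while a limma fit of the DPP4+ libraries alone gave the same difference an adjusted p of 0.00672 and edgeR called it higher (0.85, adjusted p = 0.00318). Itgb3 (0.11), Itgb4 (-0.75) and Itgb5 (-0.16) were not called, and Itgb8 was under the minimum with 0 to 6.82 normalized counts at 6 °C and 0.622 to 2.62 at 22 °C.

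Of the 4 syndecans, 1 rose and 2 fell in DPP4+ cells. Sdc1, best known from epithelia and plasma cells, had 1195, 1000.04, 938, 1109 and 603 normalized counts at 6 °C, against 361, 330.1, 269.9, 328 and 289 at 22 °C. All 5 libraries at 6 °C lay above the highest at 22 °C, with replicate 5 the lowest of them, and the ratio of means was 3.07 (log2 difference 1.59, SE 0.219, adjusted p = 8.7e-06). Sdc2 had 1299, 1617, 1609.8, 1502 and 2049 at 6 °C and 2166, 2083, 2214, 2001 and 2097 at 22 °C, and fell by 0.40 (adjusted p = 0.000316) although replicate 5 reached into the range at 22 °C. Sdc4 had 1733, 1669, 1976, 1844 and 2202 at 6 °C and 2125, 2384, 2469, 2333 and 2315 at 22 °C, and fell by 0.31 with overlapping groups (adjusted p = 0.00723). Sdc3, known from nerve and muscle, did not pass the test (-0.17, -0.93 to 0.59).

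Below the membrane, 4 of the 6 integrin activators and adaptors fell in DPP4+ cells in the cold and none rose. Vcl, which encodes vinculin, the link between talin and actin, had 1214, 1229.5, 1239.9, 1211 and 1612 normalized counts at 6 °C, against 4118, 3967, 3422, 3754 and 3639.6 at 22 °C. No library at 6 °C reached the range at 22 °C, and the mean was 2.91-fold lower at 6 °C (log2 difference -1.54, SE 0.0807, adjusted p = 1.93e-13). An antisense neighbour, Ap3m1, covers 25.5% of Vcl exon sequence and the strand of the counting is not stated. Ap3m1 had 357 ± 11.3 normalized counts at 6 °C and 315 ± 22.6 at 22 °C and was not called (0.19, limma adjusted p = 0.102), and the part of the overlap in the Vcl fall was not tested. Tln2, which encodes the less abundant talin here, had 402, 351, 361, 321 and 290.2 normalized counts at 6 °C and 1047, 941, 818, 898 and 820.1 at 22 °C, and fell by 1.39 (adjusted p = 2.3e-08). Tln1, the talin that activates integrins in most cells, had 3758, 3809, 3763, 3756 and 3867 at 6 °C and 5789, 5485, 5371, 5249 and 5212 at 22 °C, a smaller but complete separation (log2 difference -0.52, adjusted p = 1.12e-06). Zyx, which encodes zyxin, a LIM protein recruited to strained actin, fell by 0.56 (adjusted p = 4.28e-05), with 1926 to 3354 normalized counts at 6 °C and 3388 to 3662 at 22 °C. Fermt2, which encodes kindlin-2, was at -0.17 and just missed the threshold (adjusted p = 0.0503), and Pxn, which encodes the scaffold paxillin, was at 0.12 (adjusted p = 0.225).

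The promoters of some genes that fell together are shown because they hold matches to 3 of the 4 motifs that were looked for. The windows span 250 bases before to 50 bases after the start of the transcript and are from RefSeq (GRCm38.p6), where 31 of the 41 genes had one. Each motif was sought on both strands: the CArG box of serum response factor, TGACGTCA of CREB, CATTCC of TEAD factors and TGANTCA of AP-1. Capitals mark matches. The windows lie at chr14:20929148-20929447 on the plus strand (Vcl), chr7:28962283-28962582 on the minus strand (Actn4), chr6:42349578-42349877 on the plus strand (Zyx) and, for a gene that rose and holds no match, chr13:114932051-114932350 on the minus strand (Itga2), each written 5′ to 3′ along the gene.
Vcl: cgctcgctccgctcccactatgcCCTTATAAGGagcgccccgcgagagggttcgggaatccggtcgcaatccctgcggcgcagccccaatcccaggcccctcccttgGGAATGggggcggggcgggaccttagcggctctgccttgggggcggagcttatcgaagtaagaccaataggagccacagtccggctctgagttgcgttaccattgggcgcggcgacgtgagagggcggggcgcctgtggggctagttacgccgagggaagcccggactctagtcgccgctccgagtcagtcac
Actn4: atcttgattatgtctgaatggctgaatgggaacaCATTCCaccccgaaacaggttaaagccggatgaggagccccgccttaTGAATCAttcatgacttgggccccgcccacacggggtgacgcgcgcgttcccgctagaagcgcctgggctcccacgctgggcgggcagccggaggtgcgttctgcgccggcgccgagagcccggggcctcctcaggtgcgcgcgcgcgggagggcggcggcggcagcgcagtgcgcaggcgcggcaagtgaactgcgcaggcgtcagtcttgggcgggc
Zyx: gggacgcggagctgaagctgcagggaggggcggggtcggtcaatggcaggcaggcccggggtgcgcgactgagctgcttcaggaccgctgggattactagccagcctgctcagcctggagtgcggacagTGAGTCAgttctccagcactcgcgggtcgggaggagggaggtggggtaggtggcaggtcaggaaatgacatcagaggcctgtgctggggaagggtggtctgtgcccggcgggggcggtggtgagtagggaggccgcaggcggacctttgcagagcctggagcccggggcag
Itga2: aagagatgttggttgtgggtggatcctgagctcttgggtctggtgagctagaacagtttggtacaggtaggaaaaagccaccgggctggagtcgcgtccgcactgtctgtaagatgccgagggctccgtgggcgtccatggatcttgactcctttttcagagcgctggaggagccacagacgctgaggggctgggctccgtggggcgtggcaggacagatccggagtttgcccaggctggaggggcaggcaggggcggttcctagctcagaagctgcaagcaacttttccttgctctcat

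In these windows Vcl holds a CArG box from base -227 and a CATTCC match from -143. Actn4 holds CATTCC from -216 and TGANTCA from -169, and Zyx holds TGANTCA from -121. Over the 41 genes a CArG box was found in 2 of 31 with a searched window (Vcl and Fermt2), against 1.81% of 27025 genes with a window. CATTCC was found in 5 of 31 (Actn4, Flna, Vcl, Itga10 and Itgb1), against 16.6%, and TGANTCA in 4 of 31 (Actn4, Zyx, Itga3 and Itga9), against 8.97%. TGACGTCA was found in 0 of 31, against 2.03%. Of the 15 windowed genes that fell in cold DPP4+ cells, 1 held a CArG box, 3 CATTCC and 2 TGANTCA. Of the 5 that rose, 2 held TGANTCA. A gene with several windows counted if any of them held a match. The Itga3 match lay at chr11:95069149-95069448, inside the gene, and the window at chr11:95076665-95076964, at the gene's start, held none. The Itga9 window, chr9:118711442-118711741, also lay inside its gene, which starts at 118606709. A match is a run of letters, and none of these counts was tested.

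In the complex of integrin-linked kinase, 3 of 4 genes fell in cold DPP4+ cells. Ilk had 881 to 1148 normalized counts at 6 °C and 1470.2 to 1516 at 22 °C, with a log2 difference of -0.58 (adjusted p = 5.35e-08). The antisense gene Taf10 covers 76.7% of Ilk exon sequence, so reads of the pair may be mixed. Taf10 had 412 ± 22.9 normalized counts at 6 °C and 351 ± 17.9 at 22 °C and was called higher (0.23, adjusted p = 0.0224), and the part of the overlap in the Ilk fall was not tested. Lims1, which encodes the PINCH-1 partner of this kinase, fell by 0.31 (adjusted p = 5.26e-05), and Parva, the parvin that links it to actin, by 0.13 (adjusted p = 0.0299). The Parva call was lost without any of 7 libraries (DPP4+ replicates 1, 2, 3 and 4 at 6 °C and 1, 2 and 5 at 22 °C), with log2 differences of -0.11 to -0.13. Lims2, the second PINCH, was at 0.28 (0.01 to 0.54) and was not called, although it was without DPP4+ replicate 1 (0.33) or 4 (0.34) at 6 °C.

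The 2 genes of focal adhesion kinase signalling went opposite ways. Ptk2, the kinase itself, had 819, 775, 831, 779 and 834 normalized counts in DPP4+ cells at 6 °C and 608, 645, 674, 628 and 703 in DPP4+ cells at 22 °C, with no overlap, and rose 1.24-fold (log2 difference 0.31, adjusted p = 0.000106). Bcar1, which encodes its substrate p130Cas, fell by 0.72 (adjusted p = 3.99e-09), with 239 to 281 at 6 °C and 407 to 470.1 at 22 °C.

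All 5 actin cross-linker and tensin genes fell in DPP4+ cells at 6 °C. Tns3, which encodes a tensin that binds integrin tails, had 156, 149, 137, 115 and 97.2 normalized counts at 6 °C, against 994, 918, 761, 824 and 759 at 22 °C. Its highest library at 6 °C was far under the lowest at 22 °C, a 6.51-fold lower mean and the largest fall among the 39 genes (log2 difference -2.71, SE 0.173, adjusted p = 9.7e-11). Actn1, an alpha-actinin of stress fibres, had 1120.3, 983, 1034, 1104 and 636 at 6 °C and 2742, 2448, 2022, 2360.2 and 2207 at 22 °C, and fell by 1.29 (adjusted p = 3.42e-06). Replicate 5 at 6 °C was the lowest Actn1 library, and the other 4 were also under every library at 22 °C. Actn4 (-0.47, adjusted p = 1.41e-07), Tns1 (-0.34, 0.00163) and Flna, which encodes filamin A (-0.28, 0.00241), fell less.

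Of the remaining genes, Cav1, which encodes the caveolar coat protein, had 1025, 924, 991, 1028 and 1039.6 normalized counts in DPP4+ cells at 6 °C, against 2356, 2210.3, 1885, 2063 and 1917 at 22 °C. The groups did not overlap, and the mean was 2.08-fold lower at 6 °C (log2 difference -1.05, SE 0.0724, adjusted p = 2.37e-11). Gsn, which encodes the actin-severing protein gelsolin, took 1.23 to 1.96% of all reads at 6 °C and 1.21 to 1.64% at 22 °C, and was not called (0.16, -0.12 to 0.43). The rise of the endothelial marker sum with cold in DPP4+ cells, given above and mostly that of Kdr, moved with these changes. Its part in them was not tested.

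**Figure D4:**
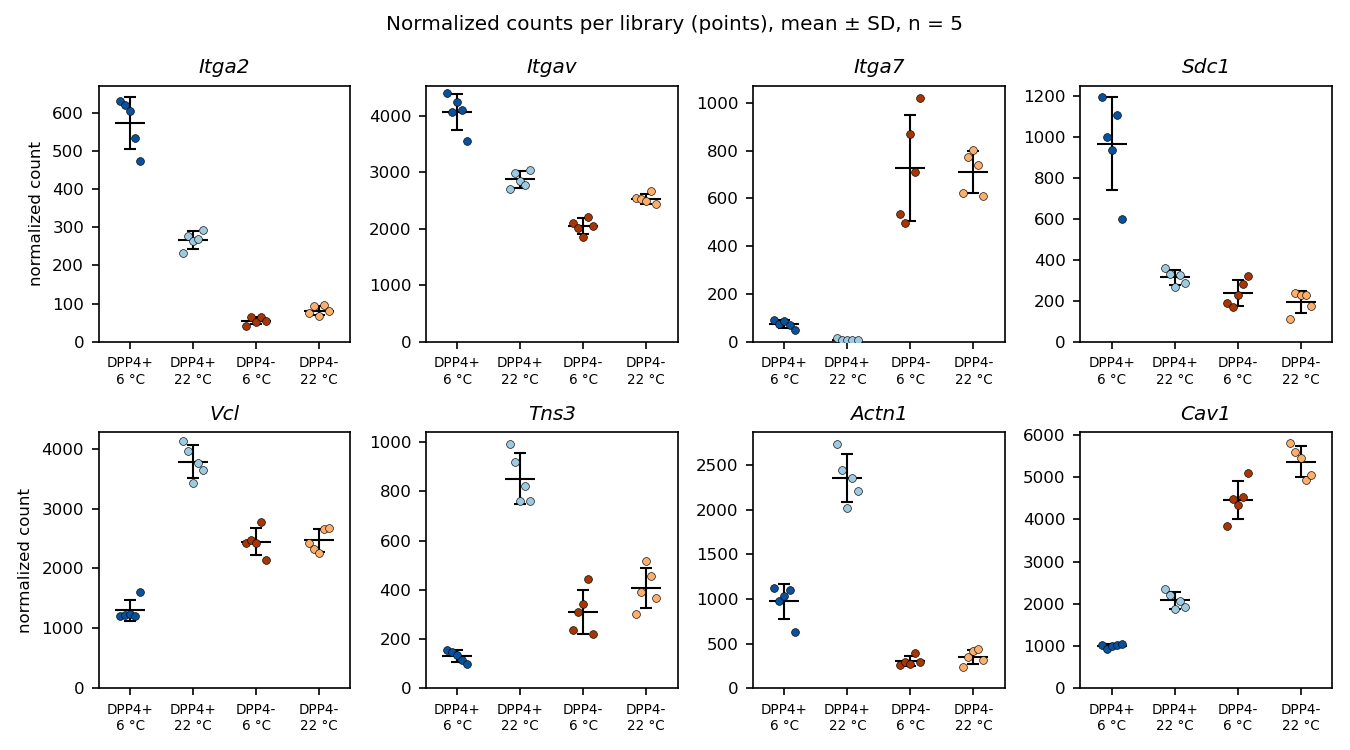
Points are normalized counts in each of the 5 libraries of a group, with the mean (bar) and SD (whiskers), for 8 genes; every axis starts at 0. In DPP4+ cells Itga2, Itgav, Itga7 and Sdc1 lie higher, and Vcl, Tns3, Actn1 and Cav1 lower, at 6 °C than at 22 °C with no overlap. In DPP4- cells Itga2 and Itgav lie lower at 6 °C with no overlap, and Cav1 was called lower with overlapping ranges.

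In DPP4- cells the same exposure left 32 of the 39 genes uncalled, with 0 higher and 7 lower. The share called lower was 17.9%, against 3.23% of all tested genes, and 1.98% of all genes were called higher. The groups did not overlap for 7 genes, or 17.9%, against 4.87%. In all, 12 genes had an unadjusted p under 0.05, against 2680 of all 13057 genes. By edgeR 0 were higher and 6 lower, against 240 and 359 over all genes. By DESeq2 0 were higher and 8 lower, against 322 and 586. With library totals set equal the split was 2 higher and 3 lower, against 915 and 227 over all genes. The median log2 difference was -0.11, against 8.91e-05 over all genes.

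The genes called lower in cold DPP4- cells were Itga2, Itga9, Sdc2, Itgav, Cav1, Itgb1 and Lims1. Itga2 had 41.6, 65.4, 51.3, 64.0 and 53.5 normalized counts at 6 °C and 74.3, 93.1, 66.8, 95.2 and 79.7 at 22 °C, with no overlap (log2 difference -0.57, adjusted p = 0.00731; 0.0656 when the DPP4- libraries were fitted alone). Itgav had 2108, 2014, 1845, 2214 and 2055 at 6 °C and 2548, 2518, 2483, 2659 and 2429 at 22 °C, again apart (-0.31, adjusted p = 0.00455). Itga9 had 614, 528, 486, 599 and 548 at 6 °C and 872, 691, 647, 666 and 670.0 at 22 °C, and fell by 0.35 (adjusted p = 0.00904). These 3 alpha chains were thus lower at 6 °C in DPP4- cells and higher in DPP4+ cells, although the Itga9 rise in DPP4+ cells was lost after quantile normalization (0.16, adjusted p = 0.0802).

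Sdc2 in DPP4- cells had 2404, 2469, 2340.4, 2724 and 2547 normalized counts at 6 °C and 3533, 3105, 3209, 2914 and 3054 at 22 °C, and fell by 0.34 with no overlap (adjusted p = 0.0166). Itgb1 had 8185, 9080.3, 8635, 8877 and 8712 at 6 °C and 11172, 10019, 9387, 9622 and 10267 at 22 °C, a fall of 0.21 (adjusted p = 0.0282). Cav1 had 3852, 4475, 4349, 4527 and 5094 at 6 °C and 5816, 5588, 5458, 4939 and 5055 at 22 °C, where 1 library at 6 °C reached the range at 22 °C (-0.27, adjusted p = 0.029). Lims1 was at -0.19 (adjusted p = 0.0438). Leaving out 1 library ended 3 of these calls. That on Itgb1 was lost without DPP4- replicates 1 (-0.19) or 3 (-0.21) at 6 °C or 1 (-0.18) or 5 (-0.21) at 22 °C, and that on Cav1 without DPP4- replicates 1 (-0.22) or 3 (-0.26) at 6 °C or 1 (-0.24), 2 (-0.26) or 3 (-0.26) at 22 °C. That on Lims1 was lost without any of 12 libraries (DPP4+ replicates 2 and 3 at 6 °C and 2, 4 and 5 at 22 °C, and DPP4- replicates 1, 2 and 3 at 6 °C and 1, 2, 4 and 5 at 22 °C), at -0.16 to -0.20. With totals set equal these 3 and Itgav lost their calls.

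Several genes that changed in DPP4+ cells were not called in DPP4- cells. Vcl had 2424, 2472, 2428, 2769 and 2137 normalized counts at 6 °C and 2421, 2327, 2256, 2665 and 2681 at 22 °C, overlapping groups with a log2 difference of -0.02 (-0.18 to 0.15). Itga7 was at -0.01 (-0.43 to 0.41), with a wider spread between libraries at 6 °C (499 to 1019.7) than at 22 °C (609.5 to 804). Ptk2 (0.02, -0.10 to 0.14) and Flna (0.01, -0.14 to 0.15) had narrow intervals about 0. Tns3 (-0.41, -0.77 to -0.04) and Tln2 (-0.32, -0.59 to -0.04) had intervals below 0 but adjusted p of 0.181 and 0.171. Gsn took 6.94 to 7.96% of reads in DPP4- cells at 6 °C, where it was the most abundant gene, and 5.05 to 6.34% at 22 °C, without passing the test (0.26, -0.02 to 0.54). With totals set equal, the scale of these shares, Gsn was called higher in cold DPP4- cells (0.36, adjusted p = 0.0366).

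The difference between the cold effects was tested directly, as the effect in DPP4+ cells minus that in DPP4- cells. It was called for 19 genes, 7 positive and 12 negative, or 17.9% and 30.8%, against 16.8% and 16.4% of all genes. Its median was -0.07, against 0.01. Positive were Itga7 (2.84, SE 0.286, limma adjusted p = 1.34e-07), Itga2 (1.66, 0.170, 5.89e-08), Itga3 (1.34), Sdc1 (1.28, 0.310, 0.00373), Itgav (0.81), Itga9 (0.59) and Ptk2 (0.29). Negative were Tns3 (-2.30, SE 0.245, adjusted p = 4.48e-07), Vcl (-1.53, 0.114, 4e-10), Itga8 (-1.20, 0.200, 5.63e-05), Actn1 (-1.11), Tln2 (-1.07), Cav1 (-0.78), Bcar1 (-0.77), Ilk (-0.68), Zyx (-0.61), Tln1 (-0.41), Actn4 (-0.36) and Flna (-0.28). For Cav1 the fall was thus larger in DPP4+ cells, while Sdc2 (-0.06, -0.30 to 0.18), Lims1 (-0.12, -0.28 to 0.04) and Sdc4 (-0.14, -0.41 to 0.12) gave no call.

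The Ptk2 difference was lost with library totals set equal (0.14, limma adjusted p = 0.215). The Flna difference was lost without DPP4+ replicate 2 at 6 °C (-0.28), DPP4+ replicate 1 (-0.26) or 2 (-0.27) at 22 °C, DPP4- replicate 4 at 6 °C (-0.25) or DPP4- replicate 3 at 22 °C (-0.27), and after quantile normalization (-0.36).

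Between the populations at 22 °C, 34 of the 39 genes differed: DPP4+ cells were higher for 23 and lower for 11. The shares, 59.0% and 28.2%, are set against 38.7% and 36.2% over all genes. The groups were apart for 31 genes, or 79.5%, against 64.8%. The median was 0.34, against 0.03 over all genes. The table's scaling bears on this split: normalized totals were 10.2 M to 12.1 M in DPP4+ libraries and 15.4 M to 17.3 M in DPP4- libraries. On a scale of equal totals the median over all genes was 0.64, and 28 of the 39 were called higher and 6 lower. Over all 13057 genes, that scale gave 9107 higher and 2039 lower.

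Itgb7 had the largest excess in DPP4+ cells. It had 415, 403, 633, 611 and 593 normalized counts in DPP4+ cells at 22 °C, against 4.05, 3.0, 13.9, 6.14 and 7.72 in DPP4- cells at 22 °C, a 76.3-fold ratio of means (log2 difference 6.19, SE 0.462, adjusted p = 6.35e-10). Of the 8 leukocyte markers at 22 °C, 7 had lower means in DPP4+ than in DPP4- cells, among them Ptprc, the pan-leukocyte surface phosphatase (3.47 ± 1.12 and 12.3 ± 8.01 normalized counts), and Cd3e (0.401 ± 0.368 and 2.10 ± 2.24), while Lyz2 was higher (55.5 ± 11.7 and 23.2 ± 7.88). Their part in the Itgb7 difference was not tested. Its lymphocyte partner Itga4 had 7.46, 5.89, 6.51, 6.89 and 4.36 in DPP4+ cells and 9.45, 10.5, 21.4, 10.7 and 14.1 in DPP4- cells. Actn1 had 2022 to 2742 in DPP4+ cells and 234, 349.8, 414, 438 and 318 in DPP4- cells at 22 °C, with no overlap, and was 6.72-fold higher in DPP4+ cells (2.77, adjusted p = 1.31e-11). Sdc3 (1.72), Itga2 (1.70), Itga11 (1.12) and Tns3 (1.08) were also more than 2-fold higher in DPP4+ cells.

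Lowest in DPP4+ cells relative to DPP4- cells was Itga7, with 14.9, 7.86, 8.68, 7.52 and 8.72 normalized counts in DPP4+ cells at 22 °C and 623, 775, 804, 739.9 and 609.5 in DPP4- cells (log2 difference -6.11, SE 0.202, adjusted p = 1.63e-16). The pericyte and smooth muscle marker sum was also lower, at 859 to 948 normalized counts in DPP4+ cells and 3899 to 5207 in DPP4- cells, carried by Abcc9 (222 ± 60.9 and 2558 ± 392) and Notch3 (239 ± 33.0 and 1594 ± 229). Rgs5 (4.95 ± 3.11 and 22.3 ± 11.6), Kcnj8 (18.5 ± 2.70 and 30.3 ± 10.8) and Myh11 (77.0 ± 7.12 and 152 ± 59.3) had lower means in DPP4+ cells too. Cnn1 (211 ± 17.1 and 2.25 ± 0.885), Mcam (44.0 ± 3.88 and 19.95 ± 4.24) and Cspg4 (84.9 ± 8.31 and 72.8 ± 15.4) had higher ones. The part of these markers in the Itga7 difference was not tested. Gsn had 126823, 133989, 186628, 157501 and 172443 normalized counts in DPP4+ cells at 22 °C, against 1095610, 910342, 971967, 848350 and 1006330 in DPP4- cells. Every DPP4+ library was far under every DPP4- library, and the mean was 6.22-fold lower in DPP4+ cells (-2.65, adjusted p = 1.39e-14). Sdc4 had 2125 to 2469 in DPP4+ cells, all under the 10731, 7380.2, 8316, 7598 and 7944 of DPP4- cells, and was 3.61-fold lower in DPP4+ cells (-1.84, adjusted p = 8.4e-15). Itga5 had 3828 to 5111 in DPP4+ cells and 15220.0, 16344, 15346, 14906 and 15197 in DPP4- cells, 3.44-fold lower in the DPP4+ cells (-1.79, adjusted p = 5.93e-15). Cav1 (-1.37) and Itga10 (-1.04) were also more than 2-fold lower. Itga10 shares 33.5% of its exon sequence with Gm42957 on the same strand, so its counts are uncertain.

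Inside the cell, all 4 genes of the integrin-linked kinase complex were higher in DPP4+ cells at 22 °C, from 0.32 (Lims1) to 0.70 (Ilk). So were 5 of 6 activators and adaptors, led by Tln1 (0.69) and Vcl (0.61), and 4 of 5 cross-linkers and tensins. The antisense genes that overlap Ilk and Vcl, Taf10 (0.69) and Ap3m1 (0.49), were called higher in DPP4+ cells too. The part of these overlaps in the Ilk and Vcl differences was not tested. Of the 2 focal adhesion kinase genes 0 were higher and 1 lower, and of the 43 further adhesion adaptors tested 18 were higher (41.9%, against 38.7% of all genes) and 11 lower (25.6%, against 36.2%), with a median of 0.15. Fermt2 (-0.52) and Ptk2 (-0.20) were lower, but both turned positive with totals set equal (0.09 and 0.41). Itgb4 (-0.99) and Itga6 (-0.69, not called) make the laminin receptor known from epithelia and Schwann cells, and the Itgb4 call was lost with totals set equal (-0.41, adjusted p = 0.257). The 4 Schwann cell markers summed to 21.1 to 36.2 normalized counts in DPP4+ cells and 189 to 499 in DPP4- cells, whose part was not tested. Itgb1, the shared beta chain, was not called (0.01, -0.11 to 0.12) on the deposited scale, and was higher in DPP4+ cells with totals set equal (0.62).

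At 6 °C, 34 genes again differed, with 19 higher and 15 lower in DPP4+ cells, or 48.7% and 38.5%, against 38.5% and 35.7% of all genes. The groups were apart for 30 genes, or 76.9%, against 57.1%, and the median was 0.08, against 0.03. With totals set equal the split was 24 higher and 12 lower, against 8240 higher and 2461 lower of all 13057 genes. Itgb7 (73.4-fold, log2 difference 6.41, adjusted p = 3.72e-10) stayed the most different gene, and DPP4- replicate 2, with the highest leukocyte marker sum, had the highest Itgb7 of the DPP4- cells (12.1, 31.4, 13.5, 5.65 and 2.47). Itga2 was 10.4-fold higher in DPP4+ cells (3.36, SE 0.120, adjusted p = 1.85e-17), and Sdc1 4.03-fold (2.01, adjusted p = 1.09e-07), with 603 to 1195 normalized counts in DPP4+ cells and 192, 172, 229, 284 and 324 in DPP4- cells. Itga7 (-3.26), Gsn (-2.75) and Cav1 (-2.15) were the largest deficits of the DPP4+ cells.

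Comparing both temperatures, 17 genes were higher in DPP4+ cells at each and 10 lower at each. Calls at both temperatures were not counted over all genes, so these counts have no background beside them. Tln2, Tns3 and Vcl changed order. Vcl stood at -0.91 at 6 °C and 0.61 at 22 °C (adjusted p = 3.49e-10 and 2.81e-07), Tns3 at -1.22 and 1.08 (2.48e-06 and 1.13e-05), and Tln2 at -0.58 and 0.50 (0.000532 and 0.0019). The Tln2 call at 6 °C was lost with totals set equal, on which scale Vcl and Tns3 kept theirs. Ilk went to 0.02 (-0.11 to 0.15) at 6 °C, against 0.70 at 22 °C, and Flna to -0.04, against 0.24. The overlapping antisense genes Taf10 (0.60) and Ap3m1 (0.67) were higher in DPP4+ cells at 6 °C, and their part was not tested. Itgb1 was called higher in DPP4+ cells at 6 °C (0.14, adjusted p = 0.0296), a call lost without DPP4+ replicate 2 (0.13) or 3 (0.13) or DPP4- replicate 1 (0.12). The call on Tns1 (-0.23) was lost without DPP4+ replicate 1 or 4 (-0.18 each).

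Other adhesion genes, from 3 lists of the same pathway, were measured in the same fits. Of 50 further adhesion adaptors 43 were tested, and in cold DPP4+ cells 7 were higher (16.3%, against 23.5% of all genes) and 20 lower (46.5%, against 22.6%), with a median log2 difference of -0.20, against 0.01 over all genes. Enah, an Ena/VASP actin polymerase, had 3261 ± 592 normalized counts at 6 °C and 558 ± 54.2 at 22 °C (log2 difference 2.53, adjusted p = 5.33e-14), while Fblim1, which encodes migfilin (-2.15), Lasp1 (-0.98), Kank2 (-0.67), Csrp1 (-0.94) and Rsu1, a partner of PINCH (-0.52), fell. In cold DPP4- cells 0 were higher, against 1.98% of all genes, and 2 lower (4.65%, against 3.23%).

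Of 28 genes for integrin and syndecan ligands, all tested, 4 were higher (14.3%, against 23.5% of all genes) and 6 lower (21.4%, against 22.6%) in cold DPP4+ cells, both shares under those of all genes. In cold DPP4- cells 0 were higher, against 1.98%, and 10 lower (35.7%, against 3.23%). Thbs1, which encodes thrombospondin-1, fell to 5006 ± 799.7 normalized counts in DPP4+ cells at 6 °C, against 43776 ± 4562 at 22 °C (-3.14, adjusted p = 1.75e-15), and the basement membrane collagen gene Col4a1 was at 0.71 (adjusted p = 2.12e-07). Fn1, which encodes fibronectin, the ligand of the Itga5 receptor, had 27821 ± 3745 normalized counts in DPP4- cells at 6 °C and 49050.3 ± 4268 at 22 °C (-0.82, adjusted p = 0.000153). Between the populations at 22 °C, DPP4+ cells were higher for 8 ligand genes (28.6%, against 38.7% of all genes) and lower for 18 (64.3%, against 36.2%), with a median of -0.85, against 0.03, and Fn1 was at 2.18. Of 8 integrin genes known from leukocytes and platelets, 2 passed the minimum and neither was called with cold in either population. Itga2b, the platelet alpha chain, had 144 ± 20.5 normalized counts in DPP4+ cells and 357 ± 16.6 in DPP4- cells at 22 °C (-1.32, adjusted p = 1.09e-11). The 5 platelet and megakaryocyte markers summed to 3.93 to 6.84 in DPP4+ cells and 10.7 to 28.4 in DPP4- cells at 22 °C. Their sum was at most 28.4 in any library, and their part in the Itga2b difference was not tested.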

How the data were processed

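RNA-seq libraries were made with the NEBNext Ultra II RNA kit, per the labels' protocols. The deposited table holds a signal per gene and library, normalized counts per the file headers. The submitters' processing notes name HISAT2 2.0.1, featureCounts 1.4.6, Trim Galore 0.4.1, DESeq2 1.6.3 and builds GRCm38 and mm10; annotation and strand setting are not given in the sources used here. In each library 100% of values were whole reads within 0.1 read, as for gene counts divided by 1 factor per library, so read counts were recovered for alternatives. The 958 genes without a symbol held 0.0610 to 0.0824% of reads.

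Differences were fitted with limma 3.58.1 (R 4.3.3; trend, robust) on log2(normalized count + 1), which understates changes of low genes, with 4 group means and 16 residual degrees of freedom, for 13057 genes with a mean of at least 10. P-values are two-sided and adjusted per comparison by the Benjamini-Hochberg method, with a threshold of 0.05. Alternatives, among them edgeR 4.0.16 and DESeq2 1.42.0 on the recovered counts, are in the closing section; for cold in DPP4+ cells edgeR called 3323 genes higher and 3210 lower.

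Genes with values in every library were, in each of the 5 comparisons, the 6 with the largest called differences and a mean of at least 50 in the higher group, plus Itgb1, Itgav, Itga5, Sdc4, Ptk2, Tln1 and Vcl; from each further list at most 6 genes with the smallest p could be named. Itga3 and Itga4 were added after their values were seen. The members and lists were chosen with earlier results of these data known. A further gene list is not reported here.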

Additional observations from a re-analysis of the deposited data

Results flagged for a closer look

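Among 156 groups of 5 libraries, 10 held a library far from the other 4 (Dixon's ratio above 0.71), where chance gives about 1 in 20. In DPP4+ cells at 6 °C, replicate 5 was the highest for Itga11 (3217 normalized counts) and Vcl (1612) and the lowest for Itga3 (33.7) and Actn1 (636). In DPP4+ cells at 22 °C, replicate 1 was the highest for Itga7 (14.9) and Bcar1 (470.1). In DPP4- cells at 6 °C, replicate 2 was the highest for Parva (2535) and replicate 4 for Actn1 (397). In DPP4- cells at 22 °C, replicate 1 was the highest for Itga9 (872) and Sdc4 (10731).

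The effect of cold differed between the populations, by limma's test of the difference itself, for 19 genes. The effect was more positive in DPP4+ cells for Itga7 (2.84 on the log2 scale), Itga2 (1.66), Itga3 (1.34), Sdc1 (1.28), Itgav (0.81), Itga9 (0.59) and Ptk2 (0.29). It was more negative for Tns3 (-2.30), Vcl (-1.53), Itga8 (-1.20), Actn1 (-1.11), Tln2 (-1.07), Cav1 (-0.78), Bcar1 (-0.77), Ilk (-0.68), Zyx (-0.61), Tln1 (-0.41), Actn4 (-0.36) and Flna (-0.28).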

How the results depend on the processing

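Of the calls made, 23 of 25 for cold in DPP4+ cells, 1 of 7 for cold in DPP4- cells (Itga9), 17 of 19 for the difference, 28 of 34 at 22 °C and 30 of 34 at 6 °C held under every alternative run. For cold in DPP4- cells, genes called higher numbered 2 with totals set equal and 3 with totals set equal without Gsn (an alternative chosen after seeing the data), against 0, and genes called lower numbered 3 and 2, 3 after quantile normalization and 4 with those groups fitted alone, against 7. Leaving out 1 library gave 4 to 8 (4 without DPP4- replicates 1 or 3 at 6 °C or 1 at 22 °C). Over all 13057 genes, the 2 scales of totals gave 915 and 1499 higher, against 259, and 227 and 210 lower, against 422. At 22 °C, genes called lower in DPP4+ cells numbered 6 on either scale of totals. Over all genes these numbered 2039 and 2215, against 4730 as deposited. The sign of the population difference turned at 22 °C, with totals set equal and then also without Gsn, for Fermt2 (0.095 and 0.030), Ptk2 (0.41 and 0.35) and Tns1 (0.46 and 0.39; 0.38 after quantile normalization), and with totals set equal for Itga8 (0.0095) and Sdc2 (0.032). It turned at 6 °C for Zyx (0.30 and 0.21), Flna (0.43 and 0.34; 0.55 after quantile normalization) and Tns1 (0.24 and 0.15; 0.046 after quantile normalization). On a scale of equal totals the median over all genes was 0.64 at 22 °C and 0.50 at 6 °C, against 0.03 at each as deposited; the cause of each change was not tested. Leaving out 1 library also ended the 22 °C call on Lims2 (0.29 without DPP4- replicate 4 at 22 °C) and gave calls not made with all 20. For cold in DPP4+ cells these were Fermt2 without DPP4+ replicate 5 at 6 °C (-0.22), DPP4+ replicate 1 at 22 °C (-0.20) or DPP4- replicates 2, 4 or 5 at 6 °C or 1 or 3 at 22 °C (-0.17), Itgb4 without DPP4+ replicate 4 (-0.89) or DPP4- replicate 1 (-0.75) at 6 °C, and Itgb5 without DPP4+ replicate 5 at 6 °C (-0.23). For cold in DPP4- cells they were Tln2 without DPP4- replicate 4 at 6 °C (-0.44) and Tns1 without DPP4- replicate 5 (-0.30) or DPP4+ replicates 1 or 5 (-0.26) at 6 °C. For the difference it was Lims2 without DPP4+ replicates 1 or 4 (0.50) or DPP4- replicate 1 (0.54) at 6 °C or DPP4- replicate 4 at 22 °C (0.51). At 22 °C they were Itga3 without DPP4- replicates 2 (0.56) or 4 (0.57) at 22 °C, Itga6 without DPP4- replicates 1, 2, 4 or 5 at 6 °C (-0.69) and Tns1 without DPP4+ replicate 5 at 6 °C (-0.15). At 6 °C they were Itga6 without DPP4- replicates 1 (-0.99) or 5 (-0.95) and Zyx without DPP4+ replicate 5 (-0.29).

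Whether replicate numbers pair the samples was not settled, because matches by number were neither complete nor absent. Same-numbered deviations correlated at 0.03 to 0.16 between the populations at 22 °C and 0.02 to 0.11 between them at 6 °C. Across temperatures the values were -0.01 to 0.27 for DPP4+ and -0.23 to 0.19 for DPP4- libraries. At 22 °C, 2 of 5 DPP4+ and 4 of 5 DPP4- libraries correlated best with their own number in the other population. At 6 °C these were 4 of 5 and 3 of 5. Across temperatures they were 2 of 5 cold and 3 of 5 room temperature DPP4+ libraries, and 3 of 5 and 2 of 5 DPP4- libraries. A fit with the replicate block called 8 higher and 18 lower for cold in DPP4+ cells, 0 and 7 in DPP4- cells, 8 and 12 for the difference, 23 and 11 at 22 °C and 19 and 15 at 6 °C; it added Lims2 for cold in DPP4+ cells (0.28) and for the difference (0.44). With the replicate block within temperature the counts were 8 and 11 for the difference, where Lims2 was gained (0.44) and Flna lost (-0.28, adjusted p = 0.0636), 23 and 12 at 22 °C, where Itga6 was gained (-0.69), and 18 and 16 at 6 °C, where Itga6 was gained (-0.69) and Itgb1 lost (0.14). Gsn was called higher for cold in DPP4+ cells after quantile normalization (0.64) and in DPP4- cells with totals set equal (0.36; 0.38 without Gsn in the totals), and the 22 °C Itgb4 call was lost on both scales of totals (-0.41 and -0.47). Depth limits the lowest genes: Itga4 and Itgb8 were under the minimum, and intervals were wide for Itgb4 and Itgb7.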
